A study of Rattus norvegicus with 8 samples.

Results

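The major histocompatibility complex (MHC) genes described here are 9 genes whose transcripts differed between the livers of rats with diet-induced hepatocellular carcinoma and the livers of rats on a healthy diet. They were chosen by name among the 2462 genes of the authors' deposited table, after earlier results of these data were known. Of the 9, 5 belong to the class II pathway (RT1-Da, RT1-Ba, RT1-Bb, RT1-DOb and Cd74) and 4 are nonclassical class I genes (RT1-T24-1, RT1-T24-3, RT1-M3-1 and RT1-M4). RT1 is the name of the MHC in the rat. Liver RNA was sequenced from 4 rats given a choline-deficient amino acid-defined diet (CDAA), which had developed the carcinoma, and from 4 rats given the choline-sufficient version of that diet (CSAA). All 8 were wild type, 1 year old and of the inbred strain Fischer 344 (F344). Whether the sampled pieces were tumour or surrounding liver is not in the labels. The values are the authors' own comparison of the diet groups, so no value of a single rat is shown, and nothing in the labels ties rats of the 2 groups together.

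Class II molecules are dimers of an alpha and a beta chain that display peptides from swallowed material to CD4 T cells. Dendritic cells, macrophages and B cells make them, and the invariant chain encoded by Cd74 holds the new dimers until peptide is loaded. Class I molecules pair a heavy chain with beta-2 microglobulin and display peptides from inside the cell; the nonclassical ones are less polymorphic, often weakly expressed, and serve more specialised recognition. In a healthy liver class II is found mainly on Kupffer cells, dendritic cells and sinusoidal endothelium, and little on hepatocytes.

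All 9 genes were higher and none was lower in the CDAA livers in the authors' deposited table, where 57.1% of all genes were higher and 42.9% lower. Every gene of the table had passed the authors' tests, so this count follows in part from the choice of members and is a description. Of the 9, 8 were at least 2-fold higher by DESeq2 in the authors' deposited table, where 50.2% of all genes were. Since all 9 were higher, the closer comparison is with the 1407 higher genes, of which 1236 were at least 2-fold higher. With an adjusted value under 0.001 asked for in each of the 3 programs, 6 of the 9 were left. By that limit 39.0% of all genes of the table passed as higher, which is 960 of the 1407 higher genes. The 5 class II genes moved by similar amounts, with a median log2 fold change of 1.38 and a range of 1.24 to 1.87 in the authors' deposited table. The 4 class I genes were spread more widely, with a median of 1.86 and a range of 0.91 to 2.90 on the same scale in the authors' deposited table. Beside these, the median over all genes of the authors' deposited table was 1.01, and over its 1407 risers it was 1.65. No test of the class II genes against the class I genes was made. Because liver was sequenced in bulk, more cells of a type and more RNA per cell cannot be told apart in any of these values.

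Among the 9 genes, and RT1-DOb apart, the order in levels was led by the class II pathway. Summed over its 5 genes, the group FPKM (sequenced fragments per unit of transcript length and of library size, one value per diet from the authors) was 401 in CDAA and 151 in CSAA in the authors' deposited table, a ratio of 2.66. The 4 class I genes summed to 29.3 FPKM in CDAA and 9.44 FPKM in CSAA in the authors' deposited table, a ratio of 3.10. These 4 class I genes together stood below RT1-Bb in both diets. The classical class I genes and B2m have no value in the authors' deposited table, so class I and class II as wholes cannot be compared. RT1-Bb was the least abundant of the RT1-B and RT1-D chains with a value (RT1-Da, RT1-Ba and RT1-Bb). Going down from the highest level in CDAA, the order in the authors' deposited table was Cd74, RT1-Da, RT1-Ba, RT1-Bb, RT1-T24-1, RT1-M3-1, RT1-T24-3, RT1-M4 and RT1-DOb, and in CSAA the last pair changed places. The authors' deposited table gives no error for a group FPKM, so it cannot be said which neighbours in this order differ beyond the spread between rats.

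**Figure D1:**
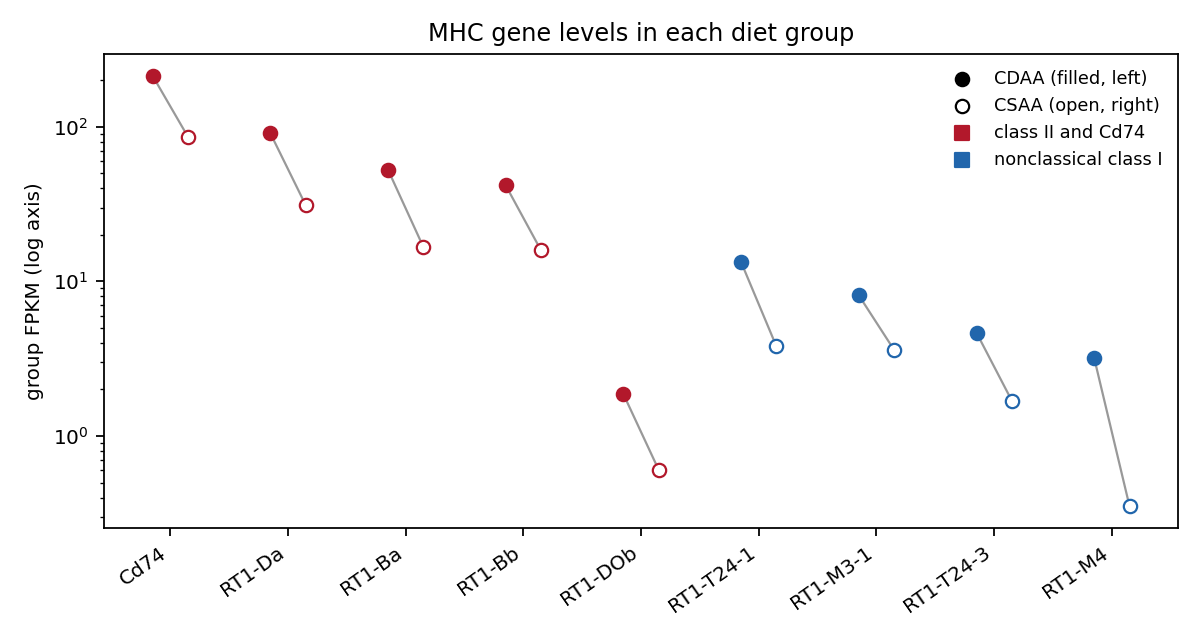
Group FPKM (log axis) of the 9 MHC genes, with the CDAA group as a filled point on the left and the CSAA group as an open point on the right of each pair; red marks class II genes and Cd74, blue nonclassical class I genes. Every CDAA point lies above its CSAA point, from 213 against 86.1 FPKM for Cd74 to 1.87 against 0.604 FPKM for RT1-DOb.

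RT1-Da encodes the alpha chain of RT1-D, the counterpart of mouse H2-E. Among the 4 class II chains with a value it was the most abundant, and no gene of the RT1-D beta chain has one. RT1-Da (ENSRNOG00000032844; chromosome 20, 4127643 to 4132616, rn6, the authors' Cufflinks locus) stood at 90.8 FPKM in CDAA and 31.2 FPKM in CSAA in the authors' deposited table. The log2 fold change of RT1-Da was 1.46 ± 0.31 (SE of the authors' DESeq2 model, 4 rats per group; adjusted p = 2.06e-05), or 2.74-fold with an approximate 95% interval of 1.80 to 4.17, in the authors' deposited table. The interval comes from the SE by the normal approximation, and it is used in the same way for the other genes.

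RT1-Ba and RT1-Bb encode the alpha and the beta chain of RT1-B, and they lie close to each other. RT1-Ba (ENSRNOG00000000451; chromosome 20, 4066131 to 4070721, rn6) was at 52.7 FPKM in CDAA and 16.7 FPKM in CSAA in the authors' deposited table. Its log2 fold change was 1.87 ± 0.23 (SE; DESeq2 adjusted p = 6.23e-15), or 3.67-fold with an interval of 2.70 to 4.99, the steepest among the class II genes in the authors' deposited table. RT1-Bb (ENSRNOG00000032708; chromosome 20, 4039412 to 4049711) was at 41.7 FPKM in CDAA and 15.9 FPKM in CSAA in the authors' deposited table. Its log2 fold change was 1.35 ± 0.35 (SE; DESeq2 adjusted p = 0.000579), or 2.55-fold with an interval of 1.59 to 4.08, in the authors' deposited table. The chains of this dimer therefore had a level ratio, alpha over beta, of 1.26 in CDAA and 1.05 in CSAA, and their fold change intervals overlapped. The difference between the chains was not tested, because both come from the same rats and the covariance is not in the table.

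RT1-DOb encodes the beta chain of DO, a class II molecule that stays inside the cell and modulates peptide loading by DM. RT1-DOb (ENSRNOG00000000454; chromosome 20, 4020316 to 4026346, rn6) was the weakest class II gene, at 1.87 FPKM in CDAA and 0.604 FPKM in CSAA in the authors' deposited table, with a mean normalised count of 17.0 over all rats. The log2 fold change of RT1-DOb was 1.38 ± 0.40 (SE; DESeq2 adjusted p = 0.00312), or 2.60-fold with an interval of 1.502 to 4.51, in the authors' deposited table. Its Cufflinks q of 0.00980 was the highest of any gene in the authors' deposited table, so RT1-DOb stood at the edge of the selection. For every 1 unit of RT1-DOb FPKM there were 22.3 units of RT1-Bb FPKM in CDAA and 26.3 units in CSAA, from levels in the authors' deposited table.

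Cd74 encodes the invariant chain, which also acts as a receptor for the cytokine MIF at the cell surface, and it lies outside the MHC. Cd74 (ENSRNOG00000018735; chromosome 18, 56071477 to 56080849, rn6) stood at 213 FPKM in CDAA and 86.1 FPKM in CSAA in the authors' deposited table, and it was the most abundant of the 9 genes in both. The log2 fold change of Cd74 was 1.24 ± 0.37 (SE; DESeq2 adjusted p = 0.00432), or 2.36-fold with an interval of 1.42 to 3.93, the smallest of the class II genes in the authors' deposited table. Set against RT1-Da, Cd74 was 2.35 times as abundant in CDAA and 2.76 times in CSAA, from the group FPKM of the authors' deposited table.

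The genes whose changes were most like those of Cd74 were sought among the 359 genes of the authors' deposited table within 2-fold of its mean normalised count, by the distance over the DESeq2, edgeR and Cufflinks log2 fold changes. The nearest was Gclc, a subunit of the enzyme that starts glutathione synthesis (1.26 ± 0.27 by DESeq2, SE), followed by the cyclin gene Ccnd1 (1.21 ± 0.37) and the tubulin gene Tubb5 (1.30 ± 0.17), in the authors' deposited table. Likeness here means a similar size of change in 1 comparison and no more.

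The starts of the class II genes are shown as background, and the part of their promoters in the changes was not tested. Class II genes are known to share a promoter module. Its X box is bound by the RFX complex, with the gene of the subunit Rfx5 described below, its Y box by NF-Y, and the coactivator CIITA docks on the assembled module. RefSeq promoter windows of build GRCr8, from the Brown Norway strain, were matched by symbol for 8 of the 9 genes (not RT1-M4), and the 250 bases before the start were searched on both strands. The lines show RT1-Da at chr20:4515314-4515385 (plus strand), RT1-DOb at chr20:4627587-4627655 (minus), Cd74 at chr18:56526971-56527036 (plus), RT1-Ba at chr20:4576947-4577033 (plus) and RT1-Bb at chr20:4604160-4604246 (minus). Each is written 5′ to 3′ along the gene, and the capitals mark the X1 box core CCTAGNAAC, where present, and the Y box core TGATTGG or, in Cd74, the shorter CCAAT.
RT1-Da: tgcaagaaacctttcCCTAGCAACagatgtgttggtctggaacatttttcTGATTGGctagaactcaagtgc
RT1-DOb: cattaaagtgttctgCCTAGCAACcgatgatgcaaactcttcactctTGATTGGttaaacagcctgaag
Cd74: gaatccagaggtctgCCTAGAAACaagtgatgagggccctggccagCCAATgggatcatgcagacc
RT1-Ba: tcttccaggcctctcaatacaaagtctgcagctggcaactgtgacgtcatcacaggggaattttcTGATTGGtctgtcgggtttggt
RT1-Bb: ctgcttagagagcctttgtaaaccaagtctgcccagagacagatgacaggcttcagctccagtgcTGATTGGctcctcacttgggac

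The Y box core was present in all 4 class II chain genes, and in 6.42% of all 33469 RefSeq promoter windows of the same length. Its first base lay 51 bases before the start in RT1-Da, 85 in RT1-DOb, 45 in RT1-Ba and 63 in RT1-Bb. The X1 box core stood 26 bases upstream of it in RT1-Da and 23 bases upstream in RT1-DOb, counted between the matches, and occurred in 1.26% of all windows. RT1-Ba and RT1-Bb had no match to it. That does not show that they lack an X box, since only this exact pattern was used for the X1 box. In Cd74 the X1 box core and CCAAT were 22 bases apart, with CCAAT on the strand of the gene. The letters ATTGG, or their reverse complement CCAAT, are held by 34.02% of windows, and the ATTGG letters are part of TGATTGG. The pair of X1 box core and ATTGG in 1 window, on either strand and at any spacing, was found in 0.448% of windows. The Y box core also occurred in all 5 windows of class II chain genes that are not in the authors' deposited table (RT1-Db1, RT1-Db2, RT1-DMa, RT1-DOa and RT1-Ha). It was not limited to class II genes: the windows of RT1-T24-1 and RT1-T24-3 hold it, as do, on the opposite strand, those of the classical class I genes RT1-A1, RT1-A2 and RT1-A3. These matches describe letters and not binding, and the F344 alleles were not examined.

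RT1-T24-1 and RT1-T24-3 are neighbouring nonclassical class I heavy chain genes of the T24 group, whose copies resemble each other, so that reads can be split between them in ways that the sources used here do not state. RT1-T24-1 (ENSRNOG00000032596; chromosome 20, 3242469 to 3282523, rn6) was at 13.3 FPKM in CDAA and 3.80 FPKM in CSAA in the authors' deposited table. Its log2 fold change was 2.44 ± 0.26 (SE; DESeq2 adjusted p = 1.13e-19), or 5.43-fold with an interval of 3.84 to 7.69, in the authors' deposited table. RT1-T24-1 was the single member whose programs differed by over 1.5 times, with 2.50 by edgeR and 1.81 by Cufflinks in the authors' deposited table. Its Cufflinks locus was 40.1 kb long in the authors' deposited table, against 4.14 to 10.3 kb for the other 8, and the part of locus length in that gap was not tested.

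RT1-T24-3 (ENSRNOG00000045924; chromosome 20, 3226312 to 3233694, rn6) was at 4.65 FPKM in CDAA and 1.69 FPKM in CSAA in the authors' deposited table. Its log2 fold change was 1.28 ± 0.31 (SE; DESeq2 adjusted p = 0.000226), or 2.44-fold with an interval of 1.60 to 3.71, in the authors' deposited table. The intervals of the pair did not overlap by DESeq2, but with Cufflinks the log2 ratios were 1.81 for RT1-T24-1 and 1.46 for RT1-T24-3 in the authors' deposited table, so the gap between the copies depends on the program. The promoter windows of the pair are shown to let their likeness be seen, at chr20:2766193-2766279 for RT1-T24-1 and chr20:2722970-2723056 for RT1-T24-3 (GRCr8, RefSeq, both plus strand), with the Y box core in capitals.
RT1-T24-1: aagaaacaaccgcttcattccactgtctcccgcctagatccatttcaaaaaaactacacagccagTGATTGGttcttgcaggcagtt
RT1-T24-3: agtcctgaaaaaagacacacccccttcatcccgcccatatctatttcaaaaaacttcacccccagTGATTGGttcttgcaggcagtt
The last 26 bases of these stretches were identical, and 60.9% of the 87 bases were the same, compared position by position without gaps. Compared in this way, the 87 bases shown for RT1-Ba and RT1-Bb were 27.6% identical. Both pairs were lined up at the Y box core, so its bases match in either pair by construction. With gaps allowed over the 250-base windows, 69.9% of aligned positions were identical for RT1-T24-1 and RT1-T24-3 and 54.8% for RT1-Ba and RT1-Bb.

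RT1-M3-1 encodes the rat counterpart of mouse H2-M3, which presents N-formylated peptides of bacteria and mitochondria. RT1-M3-1 (ENSRNOG00000000763; chromosome 20, 1814660 to 1818800, rn6) was at 8.12 FPKM in CDAA and 3.60 FPKM in CSAA in the authors' deposited table. The log2 fold change of RT1-M3-1 was 0.91 ± 0.22 (SE; DESeq2 adjusted p = 0.000233), or 1.87-fold with an interval of 1.39 to 2.52, the smallest of the 9 in the authors' deposited table. RT1-M3-1 was the only member under 2-fold by DESeq2, and Cufflinks put it at 1.17 on the log2 scale with a q of 0.00921 in the authors' deposited table.

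RT1-M4 is a nonclassical class I gene of the M region. RT1-M4 (ENSRNOG00000060412; chromosome 20, 2043718 to 2048609, rn6) was at 3.18 FPKM in CDAA and 0.352 FPKM in CSAA in the authors' deposited table, the lowest CSAA level of the 9. The log2 fold change of RT1-M4 was 2.90 ± 0.41 (SE; DESeq2 adjusted p = 6.53e-11), or 7.46-fold with an interval of 4.25 to 13.1, the steepest of the 9 in the authors' deposited table. With a mean normalised count of 23.3 over all rats in the authors' deposited table, it rests on few reads, and edgeR put it at 3.32.

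**Figure D2:**
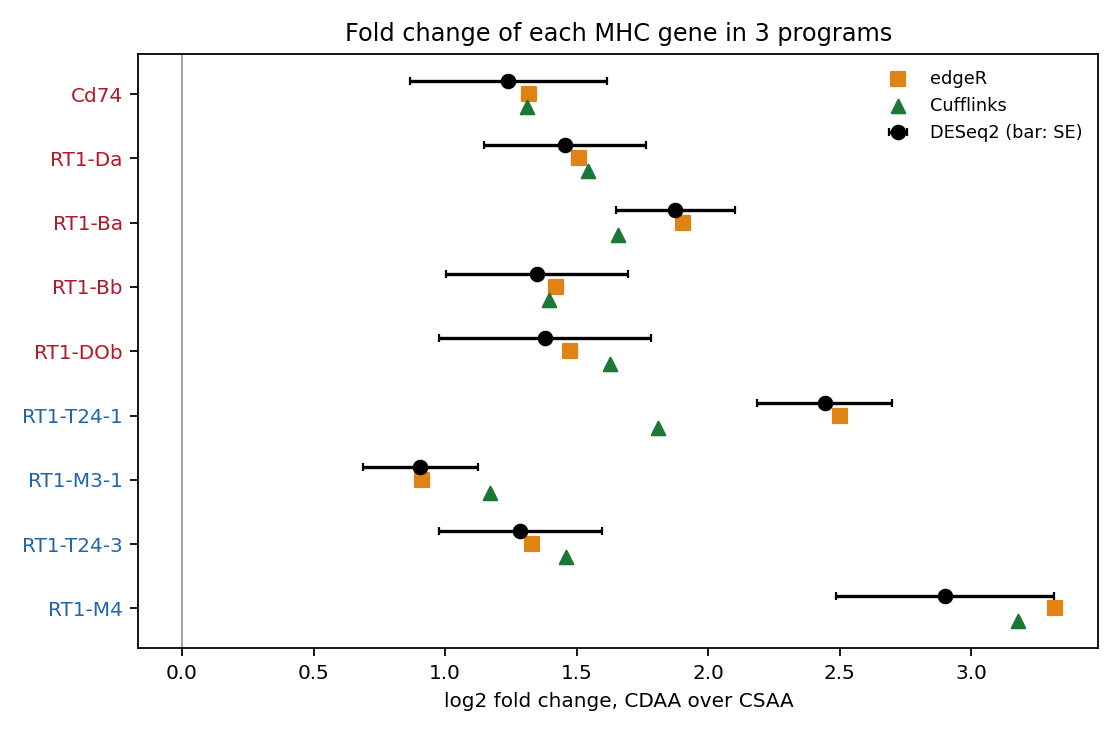
Log2 fold change, CDAA over CSAA, of each MHC gene in the authors' DESeq2 (circles, bars of 1 SE), edgeR (squares) and Cufflinks (triangles) columns; red names are class II genes and Cd74, blue names nonclassical class I genes. The programs lie within 0.42 of each other for 8 genes and 0.69 apart for RT1-T24-1.

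Cd74, RT1-Bb and RT1-Da had large SEs beside the genes of similar count in the authors' deposited table. Every gene there had passed the authors' tests, which tends to leave out genes whose SE was large for their change. The shares given here therefore rank each gene within that selection only, and its place among all genes of its abundance is not known. The SE of Cd74, 0.37 at a mean normalised count of 2247, was larger than that of 346 of the 359 genes (96.4%) within 2-fold of its count in the authors' deposited table, whose median SE was 0.20. For RT1-Bb 92.6% of the genes of similar count had a smaller SE in the authors' deposited table, and for RT1-Da 88.5%. RT1-Ba stood lower, with 58.0%, and so did the weakly expressed RT1-DOb, with 28.5%, in the authors' deposited table. The class I genes were nearer the middle or below it, with 49.6% for RT1-M4, 37.9% for RT1-T24-1, 38.1% for RT1-T24-3 and 6.34% for RT1-M3-1 in the authors' deposited table. Over the 6 pan-leukocyte markers in the authors' deposited table this share ran from 11.6% for Laptm5 to 75.0% for Vav1. It was 61.7% for Coro1a, 47.9% for Lcp1, 32.0% for Ptprc, which encodes CD45, and 14.2% for Arhgdib in the authors' deposited table. A larger SE at a given count can come from counts that varied more between rats of a group in the authors' model. The SE also depends on how the counts divide between the diets, and these parts were not separated. Which rats differed cannot be read from the table.

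**Figure D3:**
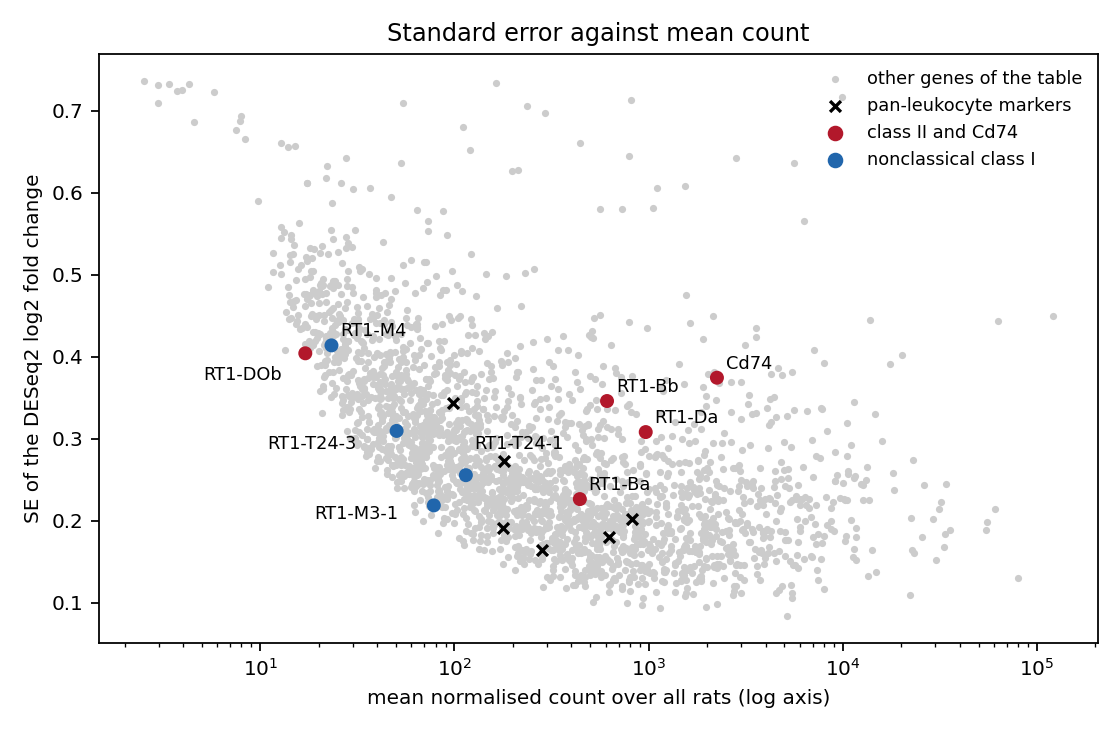
SE of the DESeq2 log2 fold change against the mean normalised count over all rats (log axis) for all genes of the table (grey), the pan-leukocyte markers (crosses), class II genes and Cd74 (red) and nonclassical class I genes (blue). Cd74, RT1-Bb and RT1-Da lie in the upper part of the cloud at their counts, at SE of 0.37, 0.35 and 0.31.

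Beyond the members, no gene of the lists on MHC chains and peptide loading was in the authors' deposited table. The authors' deposited table holds 5 of 11 class II genes and lacks RT1-Db1, RT1-Db2, RT1-DMa, RT1-DMb, RT1-DOa and RT1-Ha. It holds 4 of 38 nonclassical class I genes, all of them members. None of 3 classical class I heavy chain genes (RT1-A1, RT1-A2, RT1-A3) and none of 14 genes of the class I light chain and peptide loading, such as B2m, Tap1, Tap2, Tapbp, Psmb8 and Psmb9, was in the authors' deposited table. For scale, the authors' DESeq2 run tested 16076 genes, a number recovered from the p and adjusted p of the authors' deposited table. At least 24.8% of these had an adjusted p under 0.01, and 15.3% are in the authors' deposited table. Nothing can be said of the change of a gene that is missing from it. A gene held there under a name unknown to the reference would also count as missing.

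Among 7 genes of class II antigen processing, the asparaginyl endopeptidase Lgmn rose (52.1 FPKM in CDAA and 22.9 FPKM in CSAA, log2 fold change 1.12 ± 0.30, SE), and so did Ifi30, the lysosomal thiol reductase GILT (39.9 and 23.2 FPKM in the same order, 0.76 ± 0.14), in the authors' deposited table. The list counts given here stand beside the 15.3% of all tested genes that the authors' deposited table holds, of which 57.1% were higher. It holds 2 of 15 transcription factors of MHC genes. Ciita, the class II transactivator, was at 1.59 FPKM in CDAA and 0.755 FPKM in CSAA, a log2 fold change of 1.02 ± 0.31 (SE; DESeq2 adjusted p = 0.00408), in the authors' deposited table. Rfx5, a subunit of the complex that binds the X box, was at 5.998 FPKM in CDAA and 3.15 FPKM in CSAA (0.89 ± 0.21, SE) in the authors' deposited table. Nlrc5, the transactivator of class I genes, and Irf1 are missing from the authors' deposited table. The interferon gamma pathway counted 4 risers and no faller among 15 genes in the authors' deposited table, with a median log2 fold change of 1.48. These were the interferon-induced GTPases Gbp4 (1.70 ± 0.35, SE), Gbp2 (1.65 ± 0.24) and Gbp5 (1.32 ± 0.25) and the receptor subunit Ifngr2 (0.75 ± 0.23), and neither Ifng nor Cxcl9 and Cxcl10 was in the authors' deposited table. A mixed list of receptors for MHC molecules, other immune receptors and checkpoint ligands counted 5 risers and no faller among 13 genes in the authors' deposited table. Their log2 fold changes were 1.35 to 2.62, and being on this list does not make a gene a receptor of MHC molecules. They were the inhibitory immunoglobulin-like receptor gene Lilrb4 (2.62 ± 0.43, SE), its relative Lilrb3 (1.36 ± 0.15), the costimulatory receptor gene Icos (2.20 ± 0.36), the NK cell lectin receptor gene Klrc2 (1.61 ± 0.41) and Cd8a (1.35 ± 0.41), the T cell coreceptor for class I, in the authors' deposited table.

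Those leukocyte markers that the authors' deposited table holds were all higher in CDAA, like the 9 genes, and their part in the result was not tested. Many markers of these lists are not in it, and the counts stand beside the 15.3% of all tested genes that it holds. Among 8 pan-leukocyte markers there were 6 risers and no faller in the authors' deposited table, with a median log2 fold change of 1.32 and summed levels of 79.7 FPKM in CDAA and 28.5 FPKM in CSAA. They were led by Lcp1 (1.89 ± 0.20, SE), Ptprc (1.53 ± 0.18), Laptm5 (1.36 ± 0.16) and Coro1a (1.28 ± 0.27) in the authors' deposited table. The medians of the class II genes (1.38) and of these markers (1.32) thus lay close together in the authors' deposited table, and the difference was not tested.

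Of 16 dendritic cell markers 5 rose in the authors' deposited table, with a median of 2.25 and summed levels of 16.7 FPKM in CDAA and 3.39 FPKM in CSAA. They included the lectin gene Clec10a (2.51 ± 0.37, SE), the integrin gene Itgax (2.50 ± 0.27), Cd83 (2.25 ± 0.23) and the costimulatory gene Cd86 (1.78 ± 0.26), and not Xcr1, Clec9a, Batf3, Zbtb46 or Siglech, in the authors' deposited table. Of 20 macrophage and monocyte markers 7 rose in the authors' deposited table, with a median of 2.68 and summed levels of 154 FPKM in CDAA and 25.8 FPKM in CSAA. The steepest were Trem2 (3.92 ± 0.51, SE), Gpnmb (2.94 ± 0.28), Cx3cr1 (2.82 ± 0.45) and the lysozyme gene Lyz2 (2.68 ± 0.32), while the authors' deposited table lacks the Kupffer cell genes Clec4f, Timd4, Vsig4 and Marco. Among 20 T and NK cell markers, Klrk1 (1.38 ± 0.35, SE) and Cd8a (1.35 ± 0.41) rose in the authors' deposited table, with summed levels of 6.19 FPKM in CDAA and 2.27 FPKM in CSAA. None of 12 B cell and plasma cell markers was in the authors' deposited table. No leukocyte marker with a value in the authors' deposited table was at 0 in either diet group.

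Markers listed for the liver's own cell types differed too. Which cells made their RNA, or that of the leukocyte markers above, cannot be read from bulk liver. Of 12 endothelial and stellate cell markers 5 rose in the authors' deposited table (median 1.23; summed levels of 30.6 FPKM in CDAA and 11.8 FPKM in CSAA), among them Cd34 (2.51 ± 0.43, SE), Des (1.68 ± 0.34), Pdgfrb (1.23 ± 0.19) and Vwf (1.15 ± 0.27). Of 8 bile duct markers 6 rose in the authors' deposited table (median 3.57; 64.8 FPKM in CDAA and 9.97 FPKM in CSAA), led by Cftr (5.003 ± 0.39, SE), Spp1 (3.72 ± 0.37), Sox9 (3.60 ± 0.42) and Krt19 (3.53 ± 0.46). Of 8 hepatocyte markers, Ttr (-1.08 ± 0.13, SE) and Hnf4a (-0.76 ± 0.19) fell and none rose in the authors' deposited table, with a sum of 6466 FPKM in CDAA and 13622 FPKM in CSAA.

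**Figure D4:**
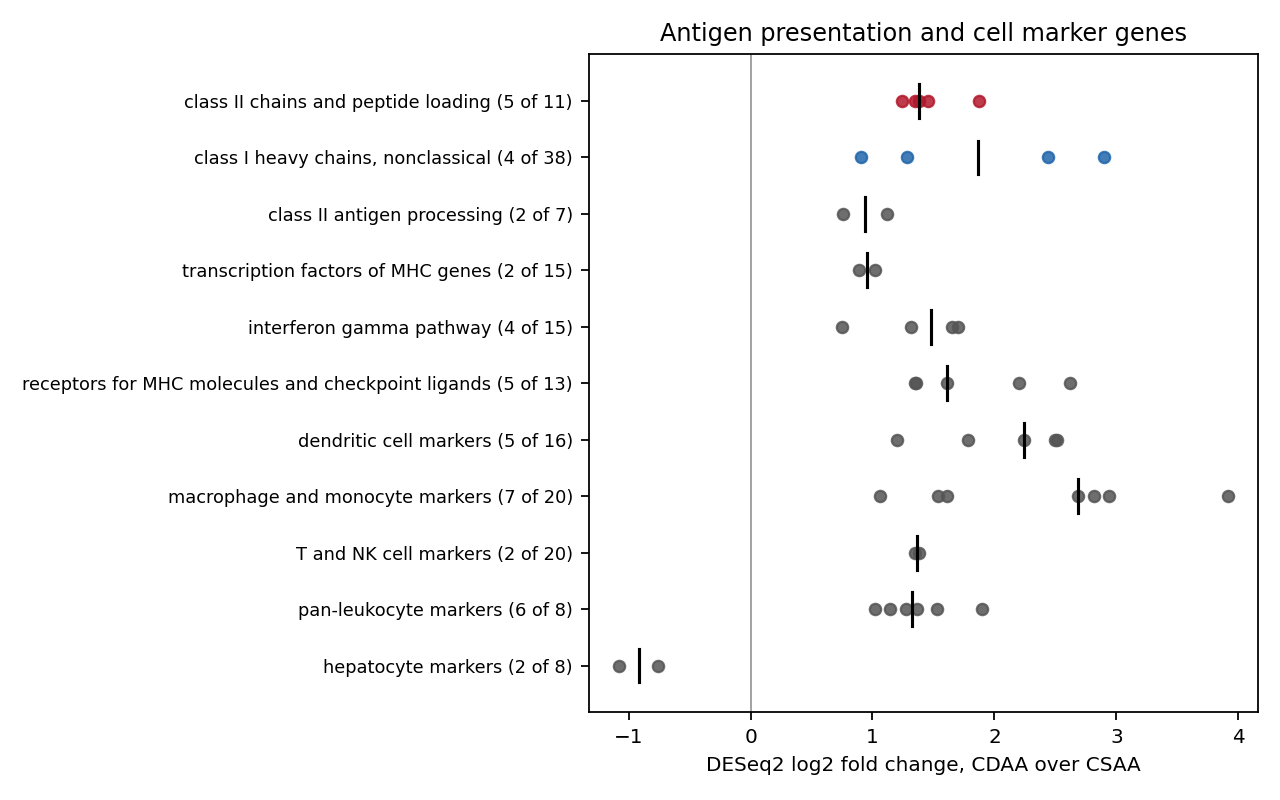
DESeq2 log2 fold change, CDAA over CSAA, of the genes of 11 lists that are in the authors' table (points), with the median of each list as a bar and the number in the table of the number in the list in brackets. The class II genes sit between 1.24 and 1.87, within the range of the pan-leukocyte markers (1.02 to 1.89), and the medians of the dendritic cell (2.25) and macrophage (2.68) markers lie further right.

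Genes in the same stretch of the complex moved in both directions. The 8 RT1 members lie in a stretch of 2.32 Mb on chromosome 20 (1814660 to 4132616, rn6) that holds 15 genes of the authors' deposited table. The 7 others in the authors' deposited table comprise 4 risers and 3 fallers. Ubd, an interferon-inducible ubiquitin-like gene between RT1-M3-1 and RT1-M4, was at 358 FPKM in CDAA and 131 FPKM in CSAA (1.37 ± 0.31, SE) in the authors' deposited table, above Cd74 in both. Tubb5 (1.30 ± 0.17, SE), the collagen receptor gene Ddr1 (3.70 ± 0.46) and the metallothionein gene Mt1m (150.0 FPKM in CDAA and 3.58 FPKM in CSAA, 3.9997 ± 0.63 by DESeq2 and 5.34 by edgeR) rose between the T24 and the class II genes in the authors' deposited table, and Mt1m too has near-identical copies. Trim26 (-1.02 ± 0.15, SE), the ribonuclease P subunit gene Rpp21 (-0.96 ± 0.18) and the steroid dehydrogenase gene Hsd17b8 (-0.88 ± 0.22) fell in the authors' deposited table. These 7 were taken for their position, a rule added after the values were seen.

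**Figure D5:**
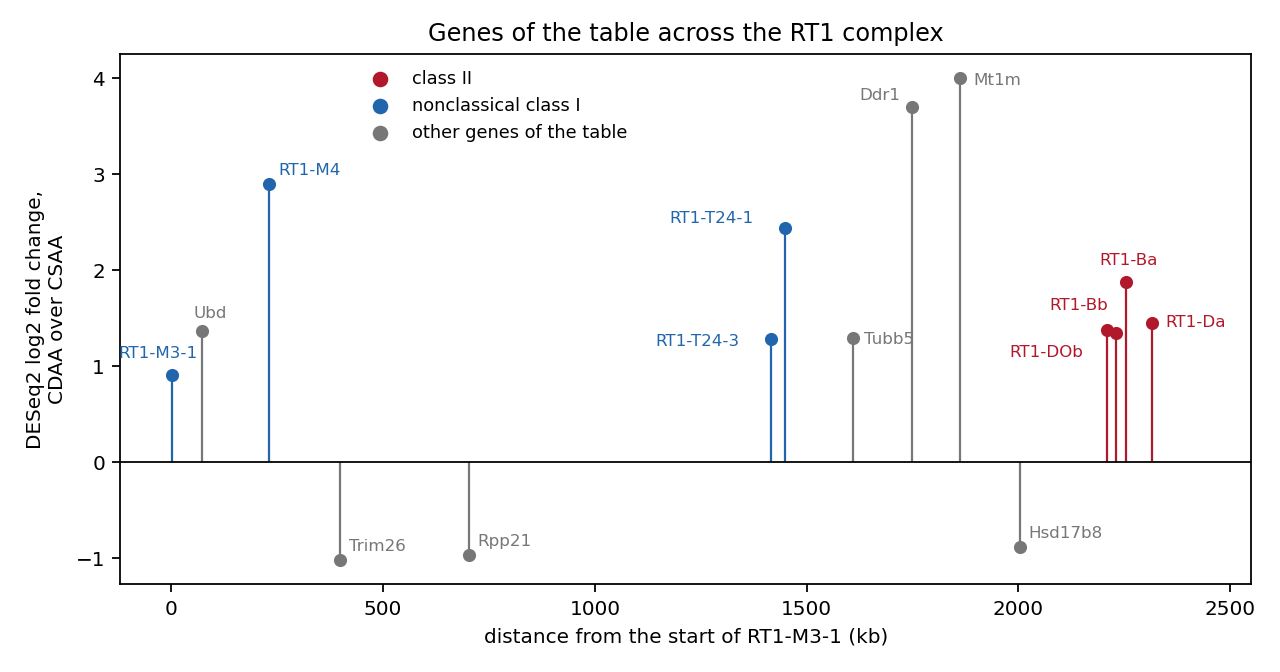
DESeq2 log2 fold change, CDAA over CSAA, of the 15 genes of the authors' table in the stretch that spans the RT1 members, against the distance of their locus from the start of RT1-M3-1 in kb; red marks class II genes, blue nonclassical class I genes and grey the other 7. The 4 class II genes stand together between 1.35 and 1.87, and 3 grey genes lie below 0.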

How the data were processed

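Liver RNA of 4 CDAA and 4 CSAA rats was sequenced; groups came from the sample titles. Trizol extraction and an Illumina TruSeq RNA kit are stated per the labels' protocols. The tools FastQC, TopHat2, Cufflinks, DESeq2 and edgeR and the build rn6 are named per the submitters' processing notes, which the sources used here give without versions, read counter, annotation or strand setting. Reads of genes that overlap on opposite strands may therefore be mixed.

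The authors deposited 1 comparison of the diets, by gene. From DESeq2 it gives, per the file headers, the mean normalised count (a signal), the log2 fold change, its SE, a Wald score and p-values. From edgeR it gives, per the file headers, the log2 fold change, log2 CPM averaged over samples, p-values and false discovery rates. From Cufflinks it gives, per the file headers, 1 pooled value per diet, its log2 ratio, a test score and q-values; the values are taken as FPKM, which the deposited header leaves unnamed. The table holds genes below 0.01 in all 3 programs, and selected fold changes tend to be overstated. The typical normalised library came to about 14100000 counted reads and no depth by rat was used here. F344 reads were aligned to a reference from another strain, the MHC is highly polymorphic, and the effect on these counts was not tested.

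No new test was run: the authors' values are described at a DESeq2 adjusted p of 0.05, as the design provided for a table of this kind. The number of genes tested was recovered as the ratio of adjusted p to p at the smallest p, and the p ranks that follow were whole within 0.01 for 93.4% of genes; the recovery, which takes the first-ranked gene to be in the table, was tested on simulated data made that way. The members and the 16 gene lists (221 symbols; 216 genes after merging aliases, with 3 unmatched symbols dropped) were chosen with earlier results of these data known. RefSeq GRCr8 served for names and promoter windows only. Genes were named by a rule: the members, any other gene whose symbol starts with RT1- (there was none), all listed genes of the antigen presentation and interferon gamma lists, up to 4 genes of each marker list with the largest change, and the 3 genes most like Cd74. Named beyond this rule were all genes of the receptor list in the table, all its pan-leukocyte markers in the SE comparison, and the genes taken for position. Alternatives were the other programs, level, fold and stricter p limits, and members or synonyms left out. Python 3.11.15 with pandas 2.3.3, numpy 2.4.6, matplotlib 3.10.9 and biopython 1.88 was used.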

Additional observations from a re-analysis of the deposited data

How the results depend on the processing

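All 9 members stayed higher in CDAA in the authors' DESeq2, edgeR and Cufflinks columns. At least 5 FPKM in the higher group left 6 members (without RT1-DOb, RT1-M4 and RT1-T24-3), all of them higher. A limit of 0.001 on all 3 adjusted values also left 6 (without Cd74, RT1-DOb and RT1-M3-1), all of them higher. By that limit 39.0% of the table passed as higher, which is 960 of its 1407 higher genes. The class II median log2 fold change lay between 1.38 and 1.54 over its alternatives. The class I median went to 2.44 in 3 genes both with at least 2-fold asked for and with the limit of 0.001, since RT1-M3-1 drops out; its other values were 1.63 to 1.92. The lists counted 52 genes higher and 2 lower, and 29 higher with at least 5 FPKM. Of 31 such set-level values under an alternative, 3 were counted as moved. The other 28 kept their direction, but not all kept the value given. The member count fell to 8 with at least 2-fold asked for and to 7 without RT1-T24-1 and RT1-T24-3. The alternatives on shared loci and on synonyms could change nothing, since no member shared a locus and no listed gene was matched by synonym. The 18 single-gene values from edgeR and Cufflinks kept their direction. All 18 lie under the p threshold because the table was selected on all 3 programs, which says nothing of stability. RT1-M3-1 changed side of the 2-fold limit, with 0.91 by DESeq2 and 1.17 by Cufflinks. No paired analysis was possible because the file holds no values per rat; for the same reason leaving out single rats, other size factors and count filters were not run.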

Other observations

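By the strength of the authors' test the members did not stand in the order of their levels. The authors' DESeq2 run tested 16076 genes, of which at least 3993 (24.8%) had an adjusted p under 0.01, as recovered from the authors' deposited table. Ranked by p among all tested genes, RT1-T24-1 was at 187, RT1-Ba at 336, RT1-M4 at 630, RT1-Da at 1814, RT1-T24-3 at 2379, RT1-Bb at 2667, RT1-DOb at 3336 and Cd74, the most abundant member, at 3495; the rank of RT1-M3-1 could not be recovered from the authors' deposited table.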
